A study of Homo sapiens with 6 samples.

Results

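The genes described here are 40 enzymes and carriers that make, exchange and break down serine and glycine, move one-carbon units through folate, and run the methionine cycle with its betaine supply. The rule picks them by name and role from the 57500 genes counted in each library, and the list was drawn up with earlier results of these data known. RNA was sequenced from wild-type HepG2 cells, an established human hepatocarcinoma line, kept for 24 h with vehicle or with glycine at 10 mM, and each group had 3 libraries. The question was how transcripts respond when cells receive excess glycine. Of the 40 genes, 39 had enough counts to be tested.

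Serine is built from a glycolytic intermediate by PHGDH, PSAT1 and PSPH, and the SHMT enzymes convert it to glycine while loading a one-carbon unit onto tetrahydrofolate. Glycine can also be formed from glyoxylate or sarcosine, and it is broken down in mitochondria by the glycine cleavage system, which again loads folate. Folate-bound carbon is used for purine and thymidylate synthesis or passed to homocysteine to regenerate methionine. In liver the same methyl group can come from betaine, and glycine accepts surplus methyl groups through GNMT.

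The libraries held between 31795489 and 58815986 counts. Values are given as CPM, which are counts scaled to the same library size and composition, and 1 count was worth 0.0171 to 0.0313 CPM. Spearman correlations across genes were 0.9957 to 0.9972 within a group and 0.9917 to 0.9941 between groups. The sum of 5 hepatocyte markers spanned 9284 to 14260 CPM in vehicle and 8227 to 10665 CPM in glycine, in ranges that overlapped. The sum of 8 cycling-cell markers spanned 1689 to 1799 CPM in vehicle and 1998 to 2080 CPM in glycine, without overlap. Summed markers stayed low for other cell types: for fibroblasts they spanned 2.06 to 2.48 CPM in vehicle and 4.0 to 5.28 CPM in glycine, for leukocytes 1.32 to 1.45 and 2.02 to 2.26 CPM, and for endothelium 4.93 to 5.03 and 3.88 to 4.48 CPM. Of these markers COL1A1 and CD68 were called higher and VWF lower, and none was at 0 in all libraries. The CD68 call was lost without any single library except vehicle replicate 3 (edgeR adjusted p from 0.0573 to 0.0845), the VWF call without any except vehicle replicate 2 (0.0558 to 0.102), and 85.8% of the CD68 exon length overlaps other genes. In bulk RNA, a smaller share of cells expressing a gene and less of its RNA per cell cannot be told apart.

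Glycine lowered the transcripts of AGXT, ALDH1L1, FTCD, GGH, BHMT and SFXN1 and raised those of AHCY, MTHFD1L, MTHFD2L and SLC19A1 (edgeR quasi-likelihood test, adjusted p under 0.05 over 15492 genes). The 4 members called higher made up 10.3% of those tested, against 6.71% of all genes, and the 6 called lower made up 15.4%, against 6.54%. Together 25.6% of the members were called, against 13.3% of all genes. The members were high in level, with a median at percentile 83.4 of the tested genes by CPM per kilobase of exon. The shares of all genes given here are not matched for level. The vehicle and glycine libraries did not overlap for 21 members, or 53.8%, against 31.6% of all genes, and glycine was the higher group in 7 of those 21. An unadjusted p under 0.05 was found for 19 of the 39 tested members, against 4225 of all 15492 tested genes (27.3%). The median log2 change of the members was -0.08, and that of all genes 0.00. The calls for AGXT, ALDH1L1 and FTCD held under each of the 14 alternative settings, and the other 7 were lost under at least 1 of them. With a library left out, the members called higher numbered 0 without vehicle replicate 1 or glycine replicate 1, 1 without vehicle replicate 3, and 2 without glycine replicate 2 or glycine replicate 3. The members called lower numbered 3 without vehicle replicate 1, glycine replicate 1 or glycine replicate 3. The 95% intervals of 35 members, or 89.7%, lay within a 1.5-fold change in either direction, against 71.6% of all genes, and all 29 uncalled members were among them.

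**Figure D1:**
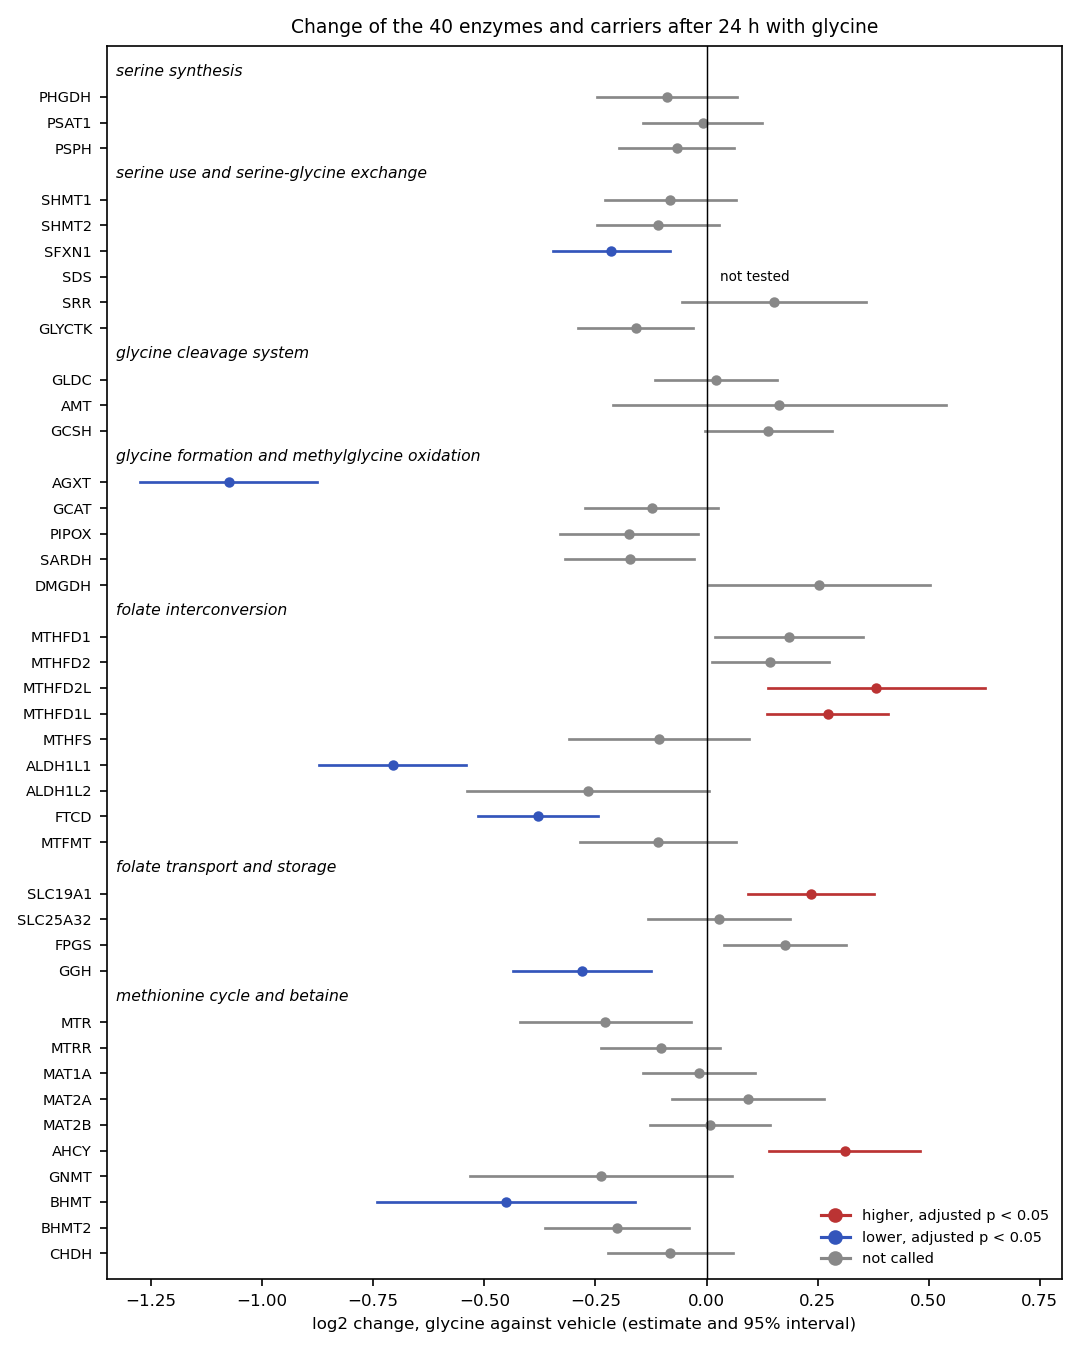
Log2 change in glycine against vehicle (horizontal axis, edgeR estimate) with its 95% interval for the 40 genes, grouped by role, with SDS marked as not tested. AGXT and ALDH1L1 lie farthest to the left, while the genes of serine synthesis and GLDC lie close to 0. GCSH and AMT lie at 0.14 and 0.16, with intervals that include 0.

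Among the enzymes that form glycine, AGXT showed the largest change of any member. AGXT (ENSG00000172482, GRCh38 chromosome 2, 240868479 to 240880502, plus strand) encodes the liver aminotransferase that turns glyoxylate into glycine in peroxisomes. Its level was 26.5, 22.6 and 27.6 CPM in vehicle and 12.8, 11.1 and 12.6 CPM in glycine. All 3 glycine libraries lay below all 3 vehicle libraries. The mean fell from 25.6 ± 2.61 to 12.2 ± 0.921 CPM (SD, n = 3 per group, as in all values that follow), a log2 change of -1.08 (SE 0.0923, edgeR adjusted p = 6.66e-06). With a single library left out, the log2 change stayed between -1.16 and -1.01.

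The branch of AGXT covers glycine formation and the oxidation of sarcosine and dimethylglycine. Its other members were not called, and 3 of them had lower means in glycine. PIPOX, which oxidizes sarcosine in peroxisomes, was at 171, 196 and 184 CPM in vehicle and 168, 170 and 150 CPM in glycine (log2 change -0.17, edgeR adjusted p = 0.137). SARDH, the mitochondrial sarcosine dehydrogenase, was at 109, 127 and 114 CPM in vehicle and 105, 102 and 103 CPM in glycine (log2 change -0.17, edgeR adjusted p = 0.111). For both genes the 2 groups did not overlap, although neither difference passed the threshold. GCAT, listed here under glycine formation, averaged 46.5 ± 2.56 CPM in vehicle and 42.7 ± 2.23 CPM in glycine (log2 change -0.12, edgeR adjusted p = 0.276). DMGDH, which turns dimethylglycine into sarcosine, differed the other way, with means of 7.40 ± 0.867 and 8.86 ± 1.06 CPM and groups that overlapped (log2 change 0.25, edgeR adjusted p = 0.174). Summed per kilobase of exon, the 5 genes of this branch stood at 97.3 ± 5.12 CPM in vehicle and 85.1 ± 3.73 CPM in glycine. The libraries of the 2 groups did not overlap in this sum, which was not tested.

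Among related genes of glyoxylate handling, HOGA1, a mitochondrial aldolase that releases glyoxylate from a product of hydroxyproline, also fell. It was at 13.4, 14.0 and 16.3 CPM in vehicle and 9.68, 11.1 and 11.2 CPM in glycine (log2 change -0.45, SE 0.0965, edgeR adjusted p = 0.00842). The groups did not overlap, and the call held under all 14 alternative settings.

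The 9 enzymes of folate interconversion moved both ways, with ALDH1L1 and FTCD lower and MTHFD1L and MTHFD2L higher. ALDH1L1 (ENSG00000144908, chromosome 3, 126103562 to 126197994, minus strand) oxidizes formyltetrahydrofolate in the cytosol to carbon dioxide and free tetrahydrofolate. It was at 65.2, 74.2 and 69.1 CPM in vehicle and 44.7, 44.5 and 38.5 CPM in glycine, so that the highest glycine library was well below the lowest vehicle library. Its mean fell from 69.5 ± 4.50 to 42.6 ± 3.53 CPM (log2 change -0.71, SE 0.0765, edgeR adjusted p = 5.21e-05).

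FTCD (ENSG00000160282, chromosome 21, 46136262 to 46155567, minus strand) moves the formimino group of histidine breakdown onto tetrahydrofolate. It was at 82.5, 76.5 and 80.0 CPM in vehicle and 63.0, 59.0 and 62.0 CPM in glycine. The groups were separated by more than the spread within either. The log2 change was -0.38 (SE 0.0622, edgeR adjusted p = 0.00138), and the adjusted p did not exceed 0.00862 under any alternative.

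AGXT, ALDH1L1 and FTCD are typical of differentiated liver, and they were named together with their values known. MAT1A, the liver form of the S-adenosylmethionine synthetase, was not called (log2 change -0.02, edgeR adjusted p = 0.895). Other members of methyl and glycine use in liver lay on both sides of 0. BHMT was called lower (log2 change -0.45), and GNMT (-0.24), GLDC (0.02) and DMGDH (0.25) were not called. The hepatocyte markers were measured beside these genes. The estimates of 5 of 5 hepatocyte markers lay below 0, and 1 of them, APOA1, the main protein of high-density lipoprotein, was called lower (log2 change -0.26, edgeR adjusted p = 0.0483). The APOA1 call was lost under 9 of the 14 alternative settings, among them the removal of any single library except vehicle replicate 2 (edgeR adjusted p from 0.0829 without glycine replicate 2 to 0.168 without glycine replicate 1). The part of the hepatocyte markers in the lower AGXT, ALDH1L1 and FTCD was not tested.

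MTHFD1L (ENSG00000120254, chromosome 6, 150865549 to 151101887, plus strand) releases formate from mitochondrial formyltetrahydrofolate, the last step of the mitochondrial route. It was at 92.8, 99.9 and 89.7 CPM in vehicle and 117, 113 and 112 CPM in glycine. Every glycine library was above every vehicle library, with a log2 change of 0.27 (SE 0.0631, edgeR adjusted p = 0.0123). The call was lost when vehicle replicate 1 (adjusted p = 0.0554) or glycine replicate 1 (0.0795) was left out.

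MTHFD2L (ENSG00000163738, chromosome 4, 74114174 to 74303099, plus strand), a mitochondrial dehydrogenase and cyclohydrolase of the same route, was a low transcript. It was at 6.79, 6.88 and 6.06 CPM in vehicle and 7.86, 9.83 and 7.87 CPM in glycine, without overlap. The log2 change was 0.38 (SE 0.114, edgeR adjusted p = 0.0416). The call was lost with each library left out: the edgeR adjusted p was 0.0878, 0.0521 and 0.109 without vehicle replicates 1, 2 and 3 and 0.0559, 0.200 and 0.0538 without glycine replicates 1, 2 and 3, and DESeq2 gave 0.0590.

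The companion enzymes of these 2 genes leaned the same way without being called. MTHFD2, the major form of the mitochondrial dehydrogenase in growing cells, was at 111, 109 and 107 CPM in vehicle and 120, 115 and 127 CPM in glycine (log2 change 0.14, edgeR adjusted p = 0.148). MTHFD1, the trifunctional cytosolic enzyme, was at 210, 237 and 206 CPM in vehicle and 271, 237 and 236 CPM in glycine (log2 change 0.19, edgeR adjusted p = 0.137). The groups did not overlap for MTHFD2 and overlapped for MTHFD1, which passed the threshold without vehicle replicate 2 (adjusted p = 0.0471). Of the MTHFD2 exon length 33.2% overlaps other annotated genes.

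The remaining folate enzymes were not called. ALDH1L2, the mitochondrial counterpart of ALDH1L1, averaged 5.64 ± 0.914 CPM in vehicle and 4.68 ± 0.171 CPM in glycine (log2 change -0.27, interval -0.54 to 0.01, edgeR adjusted p = 0.195). MTHFS, which returns a stored formyl folate to the cycle, averaged 32.1 ± 1.65 and 29.7 ± 4.32 CPM (log2 change -0.11). Of the MTHFS exon length 34.0% is shared with ST20-MTHFS on the same strand. MTFMT, which formylates the mitochondrial initiator tRNA, averaged 16.6 ± 1.01 and 15.4 ± 0.852 CPM (log2 change -0.11). For the whole branch of 9 genes the per-kilobase sum was 119 ± 3.11 CPM in vehicle and 119.5 ± 2.45 CPM in glycine, the called falls and rises lying side by side.

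**Figure D2:**
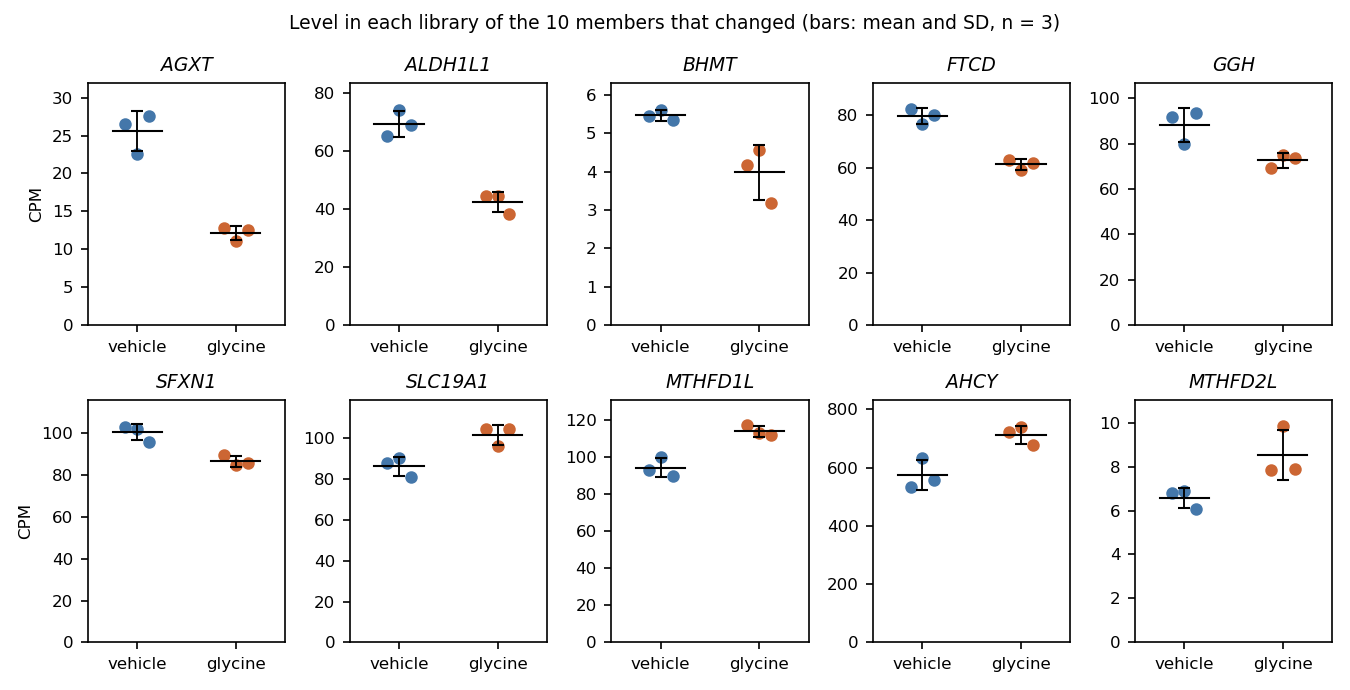
Level in CPM (vertical axis of each panel) in each of the 3 vehicle and 3 glycine libraries for the 10 called members, with the group mean and SD. In every panel the points of the 2 groups are separated, and by fold the difference is largest for AGXT and ALDH1L1.

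Folate carriers and storage enzymes also moved both ways. SLC19A1 (ENSG00000173638, chromosome 21, 45493572 to 45544411, minus strand), the reduced folate carrier of the cell surface, was at 87.6, 90.0 and 81.0 CPM in vehicle and 104, 95.9 and 104 CPM in glycine. All glycine libraries were above the vehicle libraries, with a log2 change of 0.24 (SE 0.0659, edgeR adjusted p = 0.0321). The adjusted p rose to 0.0815 without vehicle replicate 1, 0.0924 without vehicle replicate 3, 0.149 without glycine replicate 1 and 0.133 without glycine replicate 3. Of its exon length 14.0% is shared with COL18A1.

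GGH (ENSG00000137563, chromosome 8, 63015079 to 63039171, minus strand) is the lysosomal hydrolase that removes the glutamate tail of stored folates. It was at 91.5, 79.6 and 93.4 CPM in vehicle and 69.0, 75.0 and 73.7 CPM in glycine. Vehicle replicate 2 was the closest to the glycine libraries but remained above them, and the log2 change was -0.28 (SE 0.0723, edgeR adjusted p = 0.0218). The adjusted p was 0.0694 without vehicle replicate 1, 0.0600 without vehicle replicate 3, 0.0895 without glycine replicate 1 and 0.0529 without glycine replicate 3.

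FPGS, which adds the glutamate tail that GGH removes, was at 76.3, 81.4 and 83.5 CPM in vehicle and 89.2, 95 and 88.4 CPM in glycine. The groups did not overlap, but the difference was not called (log2 change 0.18, edgeR adjusted p = 0.0867). SLC25A32, which carries folate into mitochondria, averaged 24.9 ± 1.71 and 25.4 ± 1.05 CPM (log2 change 0.03, 95% interval -0.13 to 0.19).

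The estimates of 8 of 8 cycling-cell markers lay above 0. Of these, 3 were called higher: RRM2, a ribonucleotide reductase subunit (log2 change 0.42), MCM5, a replicative helicase subunit (0.35), and CCNB1, a mitotic cyclin (0.26). The CCNB1 call was lost without vehicle replicate 1 (edgeR adjusted p = 0.0710), glycine replicate 1 (0.0532) or glycine replicate 2 (0.0680). The part of the cycling-cell markers in the higher MTHFD1L, MTHFD2L, SLC19A1 and AHCY was not tested.

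Promoter sites are shown for the members that hold a CACGTG E-box, the core bound by MYC and related factors, all of which are folate genes. Windows from 250 bases before to 50 bases after an annotated start were at hand for 33 of the 40 members (RefSeq, GRCh38.p14). A gene was counted once if any of its windows held the motif, so a gene with more starts had more chances. The letters CACGTG, which read the same on both strands, occurred in 4 of the 33 members (12.1%) against 8.77% of 27305 genes. The estimates of these 4 members lay above 0, with 2 called higher. In the related list the E-box occurred in 7 of the 32 genes with a window (21.9%), and there 2 estimates lay above 0 and 5 below, with HOGA1 called lower. The sites follow in 30 bases each, with the motif in capitals.
MTHFD1L E-box, chr6:150866320-150866349, plus strand: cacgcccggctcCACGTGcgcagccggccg
SLC19A1 E-box, chr21:45541797-45541826, minus strand: ttcgcgcccaggCACGTGttgcttcgggac
FPGS E-box, chr9:127803093-127803122, plus strand: tgggcgcgacgaCACGTGggcctgcgctga
MTHFD1 E-box, chr14:64388326-64388355, plus strand: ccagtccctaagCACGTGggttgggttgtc
The amino acid response core TGATGNAA, to which ATF4 binds and which was searched on both strands, occurred in 1 of the 33 members with a window (3.03%), against 4.46% of all genes. In the related list it occurred in 3 of the 32 genes with a window (9.38%), all with estimates below 0. The member match lay in MTHFD1L, close to the E-box, and both sites fell within the windows of 3 annotated starts.
MTHFD1L response element, chr6:150866346-150866375, plus strand: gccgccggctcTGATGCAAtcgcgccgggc
These matches are letters in a window, and binding was not measured. The transcripts of MYC and ATF4 themselves, looked up after the values had been seen, averaged 176 ± 19.5 and 312 ± 16.3 CPM in vehicle and 173 ± 14.0 and 323 ± 20.4 CPM in glycine, with log2 changes of -0.02 and 0.05 (edgeR adjusted p = 0.889 and 0.698).

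In the methionine cycle AHCY was higher and BHMT lower, while the synthetases of S-adenosylmethionine were not called. AHCY (ENSG00000101444, chromosome 20, 34280268 to 34311802, minus strand) hydrolyses S-adenosylhomocysteine, the product left when S-adenosylmethionine gives up its methyl group. It was at 533, 632 and 557 CPM in vehicle and 721, 739 and 676 CPM in glycine. The lowest glycine library was above the highest vehicle library, with a log2 change of 0.31 (SE 0.0787, edgeR adjusted p = 0.0197). The adjusted p was 0.0970 without vehicle replicate 1, 0.0530 without vehicle replicate 3, 0.0871 without glycine replicate 1 and 0.0726 without glycine replicate 2.

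AHCYL1, a related protein that resembles AHCY but regulates other proteins, differed the other way. It was at 141, 150 and 137 CPM in vehicle and 114, 115 and 115 CPM in glycine, without overlap (log2 change -0.32, SE 0.0604, edgeR adjusted p = 0.00391). This call held under all 14 alternative settings.

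BHMT (ENSG00000145692, chromosome 5, 79111779 to 79132290, plus strand), which methylates homocysteine with betaine, was at 5.45, 5.62 and 5.34 CPM in vehicle and 4.17, 4.58 and 3.20 CPM in glycine. The groups did not overlap, and the glycine libraries were the more spread. The log2 change was -0.45 (SE 0.135, edgeR adjusted p = 0.0427). The edgeR adjusted p was 0.0894, 0.0882 and 0.0628 without vehicle replicates 1, 2 and 3, and 0.0730 and 0.140 without glycine replicates 1 and 3. DESeq2 gave 0.0506, and 6.79% of the exon length overlaps DMGDH.

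Other betaine and choline genes were mostly not called and lay on both sides of 0. BHMT2, which methylates homocysteine from a methionine derivative, was at 23.7, 25.7 and 25.0 CPM in vehicle and 22.4, 22.5 and 19.9 CPM in glycine (log2 change -0.20, edgeR adjusted p = 0.0999). CHDH, which starts the oxidation of choline to betaine, averaged 150 ± 9.14 and 142 ± 4.78 CPM (log2 change -0.08), and 18.0% of its exon length is shared with CACNA1D. SLC44A1, a choline transporter of the related list, was at 106, 102 and 101 CPM in vehicle and 82.3, 81.0 and 86.2 CPM in glycine. SLC44A1 was called lower (log2 change -0.31, SE 0.0597, edgeR adjusted p = 0.0046), without overlap and under all 14 settings. SLC44A2, another choline transporter named with its value known, differed the other way, at 11.4, 14.2 and 12.2 CPM in vehicle and 15.4, 15.7 and 14.7 CPM in glycine, without overlap and without being called (log2 change 0.27, edgeR adjusted p = 0.0653).

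The folate-dependent route to methionine was not called. MTR, the methionine synthase, was at 72.8, 63.9 and 55.3 CPM in vehicle and 54.6, 51.9 and 57.5 CPM in glycine (log2 change -0.23, edgeR adjusted p = 0.114). Vehicle replicate 3 lay among the glycine libraries, and without it the adjusted p was 0.0149. MTRR, which reactivates MTR, averaged 40.9 ± 1.26 and 38.1 ± 0.366 CPM (log2 change -0.10, edgeR adjusted p = 0.318).

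Synthesis of S-adenosylmethionine was measured by its liver and general forms. MAT1A, the liver form, averaged 150 ± 2.78 CPM in vehicle and 149 ± 3.72 CPM in glycine (log2 change -0.02, interval -0.14 to 0.11). MAT2A, the form of growing cells, averaged 88.1 ± 10.3 and 93.9 ± 2.01 CPM (log2 change 0.09, interval -0.08 to 0.26), and its partner MAT2B 36.5 ± 0.717 and 36.7 ± 0.958 CPM (log2 change 0.01). GNMT, which uses S-adenosylmethionine to methylate glycine, was a low transcript at 2.91, 3.07 and 3.45 CPM in vehicle and 2.85, 2.48 and 2.72 CPM in glycine. The GNMT groups did not overlap but the difference was not called (log2 change -0.24, interval -0.53 to 0.06, edgeR adjusted p = 0.293).

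The 3 enzymes of serine synthesis were not called, and their intervals were narrow. PHGDH, the first step, was at 231, 275 and 255 CPM in vehicle and 249, 240 and 228 CPM in glycine (log2 change -0.09, interval -0.25 to 0.07). PSAT1, the aminotransferase step, was at 324, 344 and 324 CPM in vehicle and 327, 334 and 325 CPM in glycine (log2 change -0.01, interval -0.14 to 0.12). PSPH, the phosphatase step, was at 91.7, 97.4 and 96.3 CPM in vehicle and 88.0, 91.2 and 93.2 CPM in glycine (log2 change -0.07, interval -0.20 to 0.06). The groups overlapped for each of these genes, and the edgeR adjusted p-values were 0.479, 0.947 and 0.518.

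Among the genes of serine use and serine-glycine exchange, SFXN1 alone was called. SFXN1 (ENSG00000164466, chromosome 5, 175477062 to 175529742, plus strand) carries serine into mitochondria. It was at 103, 102 and 95.8 CPM in vehicle and 89.2, 84.4 and 85.6 CPM in glycine. The groups did not overlap and the log2 change was -0.21 (SE 0.0609, edgeR adjusted p = 0.0348). The adjusted p was 0.0953 and 0.0724 without vehicle replicates 1 and 2, and 0.0675, 0.114 and 0.0980 without glycine replicates 1, 2 and 3.

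Its relatives were compared from the related list. SFXN3, a second mitochondrial serine carrier of the same family, was at 56.1, 57.5 and 58.0 CPM in vehicle and 39.2, 40.1 and 37.1 CPM in glycine. Its fall was wide of the spread in either group (log2 change -0.56, SE 0.0629, edgeR adjusted p = 7.31e-05) and held under all 14 alternative settings. SFXN2, looked up after its value had been seen, averaged 20.4 ± 0.616 and 21.1 ± 0.266 CPM (log2 change 0.06, edgeR adjusted p = 0.655).

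The hydroxymethyltransferases themselves were not called. SHMT2, the mitochondrial form, was at 326, 353 and 351 CPM in vehicle and 316, 326 and 313 CPM in glycine, and SHMT1, the cytosolic form, averaged 70.9 ± 3.91 and 66.9 ± 3.77 CPM. Their log2 changes were -0.11 (interval -0.25 to 0.03) and -0.08 (interval -0.23 to 0.07), with edgeR adjusted p-values of 0.297 and 0.487. GLYCTK, a kinase of glycerate left by serine breakdown, was at 79.5, 84.7 and 83.7 CPM in vehicle and 75.1, 73.7 and 73.2 CPM in glycine, without overlap (log2 change -0.16, edgeR adjusted p = 0.0989). Of the GLYCTK exon length 15.8% overlaps other genes. SRR, the serine racemase, averaged 7.03 ± 0.448 and 7.81 ± 0.283 CPM (log2 change 0.15, edgeR adjusted p = 0.343), and 42.8% of its exon length overlaps other genes. SDS, the serine dehydratase of liver, had 12 counts over all 6 libraries and no more than 4 in any, so that a difference was not detectable at this depth.

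No gene of the glycine cleavage system was called. GLDC, the decarboxylase that starts glycine breakdown, was at 164, 155 and 155 CPM in vehicle and 161, 151 and 168 CPM in glycine (log2 change 0.02, interval -0.12 to 0.16, edgeR adjusted p = 0.868). GCSH, the carrier protein that holds the glycine remnant on lipoate, was at 49.0, 44.5 and 49.5 CPM in vehicle and 51.3, 53.9 and 52.1 CPM in glycine (log2 change 0.14, edgeR adjusted p = 0.195). The groups overlapped for GLDC and did not for GCSH. AMT, which passes the carbon to folate, averaged 1.63 ± 0.140 and 1.83 ± 0.251 CPM (log2 change 0.16, interval -0.21 to 0.54). Of the AMT exon length 63.1% is shared with another annotated gene on the same strand.

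Of the shared subunit and the cofactor genes of glycine cleavage, 1 was called. DLD, the dehydrogenase subunit shared with other mitochondrial complexes, averaged 78.0 ± 0.599 and 82.3 ± 1.88 CPM (log2 change 0.08, edgeR adjusted p = 0.430). The lipoate and iron-sulfur genes LIAS, LIPT1, LIPT2, GLRX5 and BOLA3 had log2 changes of 0.22, 0.07, 0.28, -0.09 and 0.14, none of them called. IBA57, an iron-sulfur assembly factor, was called lower, at 26.1, 26.4 and 25.1 CPM in vehicle and 22.6, 22.4 and 21.7 CPM in glycine (log2 change -0.22, SE 0.0670, edgeR adjusted p = 0.0454). That call was lost under 10 of the 14 alternative settings. It missed the threshold without each single library (edgeR adjusted p from 0.0513 without vehicle replicate 3 to 0.131 without glycine replicate 3), with total counts alone (0.0585), with no filter (0.108) and with DESeq2 (0.0613). The related list as a whole held 37 genes, of which 34 were tested. It had 1 gene called higher (2.94% of those tested, against 6.71% of all genes) and 5 called lower (14.7%, against 6.54%). Its median log2 change was -0.05.

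**Figure D3:**
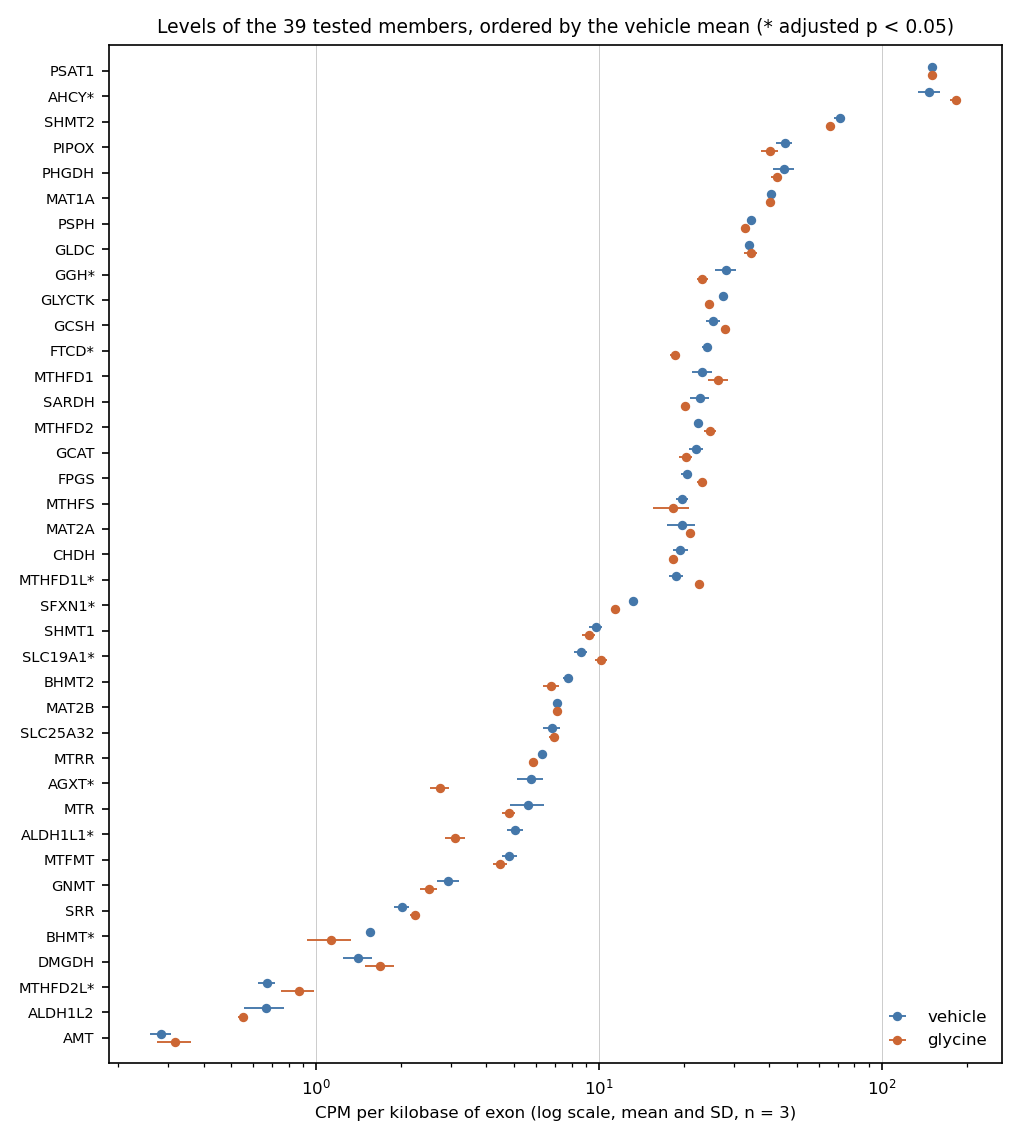
Mean level in CPM per kilobase of exon (horizontal axis, logarithmic) in vehicle and glycine for the member genes, ordered by the vehicle mean, with called members marked by an asterisk. PSAT1 and AHCY stand at the top, and the called genes are spread over the whole range.

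Levels were compared between genes after division by exon length. In vehicle, PSAT1 at 151 ± 5.19 CPM per kilobase and AHCY at 147 ± 13.3 differed by less than their spread. SHMT2 followed at 71.0 ± 3.05 CPM per kilobase, then PIPOX at 45.3 ± 3.01 and PHGDH at 45.2 ± 3.93, a pair that also lay within each other's spread. In glycine AHCY stood at 183 ± 8.35 CPM per kilobase and PSAT1 at 150 ± 2.23, so that their ranges no longer met. The lowest tested members in vehicle were AMT at 0.283 ± 0.0243, ALDH1L2 at 0.662 ± 0.107 and MTHFD2L at 0.670 ± 0.0457 CPM per kilobase. The level of AMT and its rank are uncertain, because 63.1% of its exon length is shared with another gene on the same strand.

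Summed levels per branch were also set side by side. The 3 serine synthesis genes summed to 231 ± 9.70 CPM per kilobase in vehicle and 225 ± 2.79 in glycine. The 6 genes of serine use and serine-glycine exchange summed to 123 ± 4.20 and 113 ± 1.60 CPM per kilobase, without overlap between the libraries. The glycine cleavage genes summed to 59.6 ± 2.13 and 62.7 ± 1.41 CPM per kilobase. The methionine and betaine genes summed to 258 ± 11.4 and 291 ± 8.59 CPM per kilobase, also without overlap, and AHCY made up most of that sum. The folate transport and storage genes summed to 64.1 ± 2.5 and 63.4 ± 0.976 CPM per kilobase. No test was run on these sums.

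**Figure D4:**
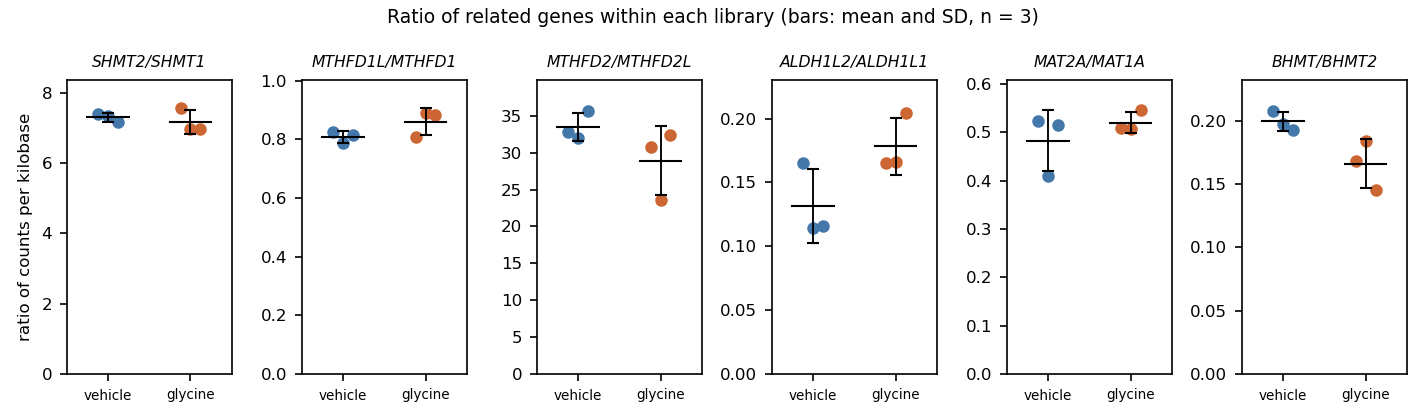
Ratio of the counts per kilobase of paired genes within each library (vertical axis of each panel), for 3 vehicle and 3 glycine libraries, with the group mean and SD. The groups are separated for BHMT over BHMT2 and overlap in the other 5 panels.

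Related enzymes were also compared as ratios of their counts per kilobase within a library, which do not depend on library scaling. The ratio of SHMT2 to SHMT1 was 7.30 ± 0.127 in vehicle and 7.17 ± 0.343 in glycine (exact permutation p = 0.6). The ratio of MTHFD1L to MTHFD1 was 0.808 ± 0.0201 and 0.860 ± 0.0451 (exact permutation p = 0.3), and that of MAT2A to MAT1A 0.483 ± 0.0635 and 0.520 ± 0.0221 (exact permutation p = 0.6). The groups overlapped for all 3 of these ratios. The ratio of ALDH1L2 to ALDH1L1 was 0.132 ± 0.0289 and 0.178 ± 0.0223, and that of MTHFD2 to MTHFD2L 33.5 ± 1.90 and 28.9 ± 4.70 (exact permutation p = 0.2 for each). BHMT to BHMT2 was the one ratio whose groups did not overlap, at 0.200 ± 0.00775 in vehicle and 0.166 ± 0.0194 in glycine (exact permutation p = 0.1). These 6 two-sided tests of 3 against 3 libraries cannot go below 0.1, and the smallest p adjusted over them was 0.4.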

How the data were processed

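RNA was sequenced from 6 HepG2 libraries, 3 with vehicle and 3 with glycine. Per the labels, the authors trimmed reads with Trimmomatic 0.36, aligned them to GRCh38 with STAR 2.5.2b and counted them with featureCounts (Subread 1.5.2), and the deposited values are raw counts per gene. The strand setting is not given in the sources used here, so reads of overlapping genes cannot be assigned with certainty. The labels number the replicates, and the study describes replicates as experiments made on different days.

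Counts were tested with the edgeR 4.0.16 quasi-likelihood test in R 4.3.3 (two-sided, group as the sole term), after the edgeR filter (minimum count 10, minimum total 15) and trimmed-mean scaling, with Benjamini-Hochberg adjustment over 15492 genes and a threshold of 0.05. Of the 57500 genes, those below the filter were not tested. Intervals are 95%. Counts per kilobase use the deposited exon length. A limit of 3 counts equals 0.051 to 0.0944 CPM when the library totals are left unscaled. It covers counting error only, since PCR copies cannot be told from molecules without identifiers. Replicates of a group differed by more than sampling noise (chi-square 7.59 to 29.3 per degree of freedom), so none was a duplicate. Common biological variation was 7.29%.

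Alternatives were DESeq2 1.42.0 size factors, upper-quartile scaling, total counts alone, no filter, a stricter filter (1 CPM in 3 libraries), the DESeq2 Wald test, limma 3.58.1 with voom, a fit blocked by replicate number, and each library left out in turn. The 40 members and the related and marker lists were chosen with earlier results of these data known. Called members are given per library, as are called related genes except 1 that is not reported here, and the cofactor genes of glycine cleavage are named whether called or not. Genes outside this rule were picked with their values known. Promoter sequences came from RefSeq (GRCh38.p14).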

Additional observations from a re-analysis of the deposited data

How the results depend on the processing

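No called gene changed direction under the alternatives run; of the uncalled members, PSAT1, GLDC, SLC25A32, MAT2A and MAT2B changed sign near 0 under at least 1 of them. The 4 members called higher were 3 with the DESeq2 test, and 0 to 4 with a library left out (0 without vehicle replicate 1 or glycine replicate 1). The 6 called lower were 5 with the DESeq2 test, and 3 to 5 with a library left out. Related genes called higher numbered 1, or 2 with total counts alone and 2 with no filter, and 0 to 2 with a library left out. Those called lower numbered 5, or 4 with total counts alone, no filter, the DESeq2 test or a library left out. Over all genes, 1040 were higher (859 with DESeq2, 1221 with no filter, 587 to 926 with a library left out) and 1013 lower (655 to 1010 with a library left out). Without the filter MTR passed at an adjusted p of 0.0460 and SFXN1 missed at 0.0607. Replicate numbers did not pair the libraries: deviations of same-numbered libraries correlated at -0.058, -0.027 and -0.003, those of differently numbered libraries at -0.198 to 0.214, and no other pairing was fitted. With a replicate block, 866 genes were higher and 918 lower, 3 members higher and 5 lower, and SFXN1 (0.0670), SLC19A1 (0.0565) and IBA57 (0.0876) missed the threshold. The cause was not tested. A total of 3 libraries per group limits the precision.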
